A study of Mus musculus with 5 samples.

Results

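The regions described here were H3K4me1-marked stretches of intergenic chromatin that held no called Runx3 region but lay near one. They were taken from the list of 18992 H3K4me1-marked regions by position alone. The centre of the region had to be more than 5 kb from every annotated transcript start and outside every protein-coding gene body, the region had to share 0 bp with any of the 9135 Runx3-bound regions, and the centre of a Runx3-bound region had to lie within 100 kb of its own centre. The rule kept 3279 regions, or 17.3% of the H3K4me1 list (95% Wilson interval 16.7 to 17.8%), which are called unbound regions below. The same intergenic, start-distal space held 1978 H3K4me1-marked regions that shared sequence with a Runx3 region (called Runx3-bound intergenic regions) and 440 that had no Runx3 region centre within 100 kb (called remote regions). The unbound regions were thus 57.6% of the 5697 intergenic distal H3K4me1 regions.

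ChIP-seq was performed on CD8+ T cells (CD8-TC) taken from the spleen of wild-type (WT) ICR mice by positive selection on anti-CD8 beads, stimulated through the TCR with anti-CD3e and anti-CD28 for 2 days and then grown for 4 days in 100 u/ml IL-2. Anti-Runx3 antibody was used for 2 libraries, anti-H3K4me1 antibody for 1, and the control serum of non-immune rabbits (NIS) for 2. All libraries shared the culture above, and no other treatment is named. Each antibody has a single list, called after the reads of its repeats were joined, and the lists give positions without heights, scores or read numbers. There is therefore no replicate error and no test in what follows, the lists do not hold the depth behind a region, and the intervals given cover counting error among regions only, which are not replicates of a condition. A region without a called Runx3 region may still have held Runx3 under the calling limit.

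H3K4me1, the monomethylated form of lysine 4 on histone H3, is a chromatin mark found widely at enhancers, both active ones and ones that are poised. Runx3 is a transcription factor of the RUNX family that recognises a short DNA word through its Runt domain and works with other factors, among them ETS proteins, at enhancers of lymphocyte genes. In CD8-TC it is known for the silencing of Cd4 and for the cytotoxic effector program. The cell type was checked by the H3K4me1 list itself. An H3K4me1 region lay in or within 5 kb of 7 of 7 T cell marker genes (Cd3e, Cd3d, Cd3g, Cd2, Cd5, Cd8a and Cd8b1) and of 0 of 3 liver genes. The same was found at 3 of 5 B cell genes, among them Pax5 and Cd79a, and at 1 of 5 myeloid genes, Itgam.

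The word sought by Runx3 was searched as TGTGGT or TGTGGC or TGCGGT or TGCGGC on both strands, here called a RUNX word. The sequences below are the 200 bp windows of the 4 unbound regions with most RUNX words in any 200 bp among those considered, each followed by the central 200 bp of its nearest Runx3 region. They are shown because the unbound window was far richer in RUNX words than the Runx3 one in each of these pairs, which were picked for that number. Capitals mark RUNX words, which may overlap, and the sequence is the mm9 plus strand.
Pabpc1-Ywhaz unbound region, chr15:36681741-36681940: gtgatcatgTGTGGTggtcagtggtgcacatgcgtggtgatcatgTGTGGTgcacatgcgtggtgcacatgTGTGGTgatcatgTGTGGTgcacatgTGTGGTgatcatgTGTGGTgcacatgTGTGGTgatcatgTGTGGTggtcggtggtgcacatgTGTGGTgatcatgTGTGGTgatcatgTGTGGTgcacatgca
Nearest Runx3 region, chr15:36711799-36711998: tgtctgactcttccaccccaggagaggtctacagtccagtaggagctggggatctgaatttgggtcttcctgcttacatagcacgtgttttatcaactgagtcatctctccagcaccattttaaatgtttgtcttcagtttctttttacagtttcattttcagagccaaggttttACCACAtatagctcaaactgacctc
Id2-Rnf144a unbound region, chr12:25934944-25935143: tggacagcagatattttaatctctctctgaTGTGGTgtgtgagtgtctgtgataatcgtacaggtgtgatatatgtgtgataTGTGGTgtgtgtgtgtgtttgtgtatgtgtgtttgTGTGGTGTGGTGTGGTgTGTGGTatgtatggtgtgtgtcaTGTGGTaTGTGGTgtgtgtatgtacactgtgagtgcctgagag
Nearest Runx3 region, chr12:25939688-25939887: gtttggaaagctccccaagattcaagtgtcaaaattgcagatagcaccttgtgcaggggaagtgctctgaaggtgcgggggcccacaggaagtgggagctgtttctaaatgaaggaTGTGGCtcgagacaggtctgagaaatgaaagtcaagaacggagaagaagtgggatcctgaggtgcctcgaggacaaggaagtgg
Cacna1e-Ier5 unbound region, chr1:156641144-156641343: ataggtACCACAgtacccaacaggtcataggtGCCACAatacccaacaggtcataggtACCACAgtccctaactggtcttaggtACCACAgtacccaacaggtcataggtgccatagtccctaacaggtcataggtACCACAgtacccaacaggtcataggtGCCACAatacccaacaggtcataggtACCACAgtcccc
Nearest Runx3 region, chr1:156633607-156633806: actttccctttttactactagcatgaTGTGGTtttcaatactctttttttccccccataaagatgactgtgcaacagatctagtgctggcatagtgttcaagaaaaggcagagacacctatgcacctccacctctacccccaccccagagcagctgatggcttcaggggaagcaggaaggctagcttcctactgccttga
Lrrc8b-Lrrc8c unbound region, chr5:105928403-105928602: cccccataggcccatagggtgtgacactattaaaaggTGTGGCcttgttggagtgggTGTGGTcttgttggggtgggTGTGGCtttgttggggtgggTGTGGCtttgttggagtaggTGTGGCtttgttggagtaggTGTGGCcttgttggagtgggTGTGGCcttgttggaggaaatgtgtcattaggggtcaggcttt
Nearest Runx3 region, chr5:105940183-105940382: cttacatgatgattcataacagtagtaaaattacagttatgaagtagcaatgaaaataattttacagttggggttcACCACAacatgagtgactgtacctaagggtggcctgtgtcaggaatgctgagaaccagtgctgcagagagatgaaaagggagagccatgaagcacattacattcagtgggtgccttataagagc

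In the first unbound region, in the intergenic interval between Pabpc1 and Ywhaz, 11 RUNX words stood in 200 bp, and 7 of the 10 steps from one word to the next were 13 bp. The nearest Runx3 region, 30.2 kb away centre to centre, had 1 RUNX word in its central 200 bp. The second lay between Id2 and Rnf144a and held 8 words in its densest 200 bp, at steps of 5 to 52 bp. The Runx3 region 1154 bp from its edge had 1 in its central 200 bp. In the region between Cacna1e and Ier5, 5 of 6 steps were 26 bp, and in that between Lrrc8b and Lrrc8c, 6 of 6 steps were 20 bp. The words of these and of the Pabpc1-Ywhaz window were thus regularly spaced, and the bases between the words recurred with them, as in tandem repeats. The Id2-Rnf144a window held runs of alternating T and G. The word numbers of these windows thus count, at least in part, copies of repeated sequence. The Runx3 regions nearest to the Cacna1e and Lrrc8b regions had 1 RUNX word each in their central 200 bp. The share of 32-base words that occur once in the genome was 94.1, 98.7, 90.7 and 94.8% over the 4 whole unbound regions. It was not computed for the 200 bp windows alone, so whether reads could be placed uniquely within them was not tested.

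Such dense regions were rare. Of the 3279 unbound regions, 209 (6.37%, interval 5.59 to 7.26%) had no RUNX word anywhere. A RUNX word stood somewhere in 93.6% of the unbound, 96.7% of the Runx3-bound intergenic and 93.9% of the remote regions. In the Runx3 regions the share was 92.6%. These shares depend on the length searched. Per kb of whole region there were 2.07 RUNX words in the unbound and 4.28 in the Runx3 regions. The most in any 200 bp window was 1 in 1246 regions, 2 in 1331 and 3 in 391. The median unbound region held 3 RUNX words in its whole length, with quartiles of 2 and 5.

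The first question was how far the unbound regions stood from Runx3. The median distance from centre to nearest Runx3 centre was 12252 bp (order-statistic interval 11576 to 12967 bp, quartiles 4446 and 30034 bp). Within 2 kb lay 360 of the regions (11.0%), within 10 kb 1445 (44.1%) and within 50 kb 2864 (87.3%). Edge to edge, 257 regions (7.84%) had a Runx3 region less than 500 bp away and 154 (4.70%) less than 200 bp away. The plot of distances shows a broad rise from 0.5 kb to a plateau between 10 and 30 kb on a log scale.

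**Figure D1:**
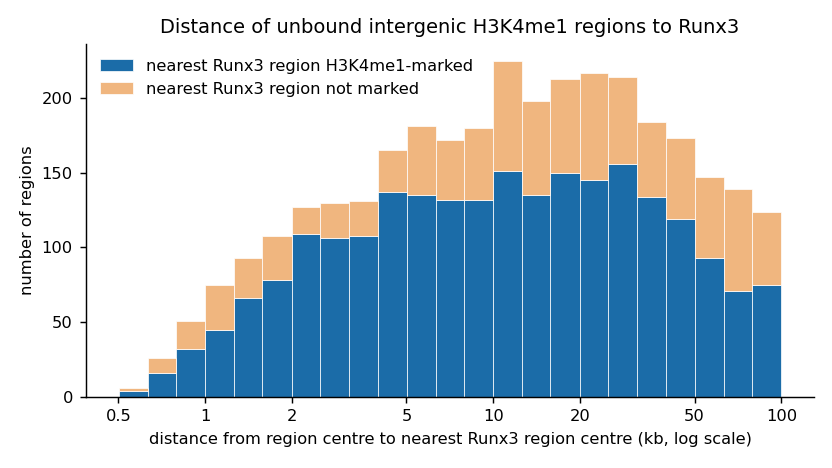
Number of unbound regions (n = 3279) by the distance from their centre to the nearest Runx3 region centre, in kb on a log scale, with bars split by whether that Runx3 region was itself H3K4me1-marked. Counts per bar rose from 6 at the shortest distances to 225 between 10 and 12.6 kb, and the marked part was the larger one in every bar.

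The rule requires at least 1 Runx3 region centre within 100 kb, so the number found there starts at 1. It was counted for the unbound regions only. A median of 3 Runx3 region centres (range 1 to 16) lay within 100 kb, 1017 regions had 5 or more and 653 (19.9%) had 1. Runx3 was found within 100 kb on both sides of 1827 regions (55.7%). The nearest Runx3 region was in the same intergenic interval for 2463 regions (75.1%), and the region and its nearest Runx3 region had the same nearest protein-coding start in 2638 cases (80.5%). The nearest Runx3 region lay on the side of the nearest protein-coding start for 1709 regions (52.1%, interval 50.4 to 53.8%) and away from it for the others.

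The nearest Runx3 regions were for the most part intergenic and H3K4me1-marked. Of the unbound regions, 2293 (69.9%) had an intergenic start-distal Runx3 region as nearest, whereas 29.3% of all Runx3 regions were of that kind. A Runx3 region less than 1 kb from a start was nearest to 389 (11.9%), against 26.3% of all Runx3 regions. Both contrasts are in part set by the rule, which places every unbound region in intergenic sequence away from starts. The nearest Runx3 region was H3K4me1-marked for 2329 (71.0%, interval 69.5 to 72.6%), compared with 57.3% (56.3 to 58.3%) of all Runx3 regions. In the first of these shares a Runx3 region counts once for each unbound region it is nearest to. Counted once each, the 1864 Runx3 regions that were nearest to an unbound region were 20.4% of the Runx3 list, and 68.6% (66.5 to 70.7%) were marked. Of the 1208 that were intergenic and distal, 77.6% (75.2 to 79.9%) were marked, beside 69.4% (67.7 to 71.2%) of all 2673 intergenic distal Runx3 regions. The first set is part of the second.

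H3K4me1-marked regions also lay near one another. Another H3K4me1 region was found within 5 kb, edge to edge, of 62.6% of the unbound regions, of 65.5% of the Runx3-bound intergenic regions and of 28.2% of the remote regions. The gap to the remote regions is in part set by the rule, since these have no Runx3 in reach and so no neighbour that near with Runx3, whereas for 703 unbound regions (21.4%) the nearest H3K4me1 region was within 5 kb and held Runx3. The difference between the Runx3-bound and the unbound regions was 2.86 percentage points (95% Newcombe interval 0.176 to 5.51). The nearest H3K4me1 region held Runx3 for 1097 unbound regions (33.5%, interval 31.9 to 35.1%), while 29.2% of all H3K4me1 regions and 34.7% of the intergenic ones over 5 kb from a start held it. A second unbound region had its centre within 10 kb of 1696 of them (51.7%). Where regions closer than 1 kb were merged before the rule was applied, 2367 unbound regions remained and this share was 30.0%.

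For the 257 unbound regions less than 500 bp from a Runx3 region, the adjacent Runx3 region overlapped another H3K4me1 region in 164 cases (63.8%, interval 57.8 to 69.4%). In 137 cases (53.3%) an H3K4me1 region lay over the Runx3 region or within 500 bp beyond it, on the side away from the unbound region. The 5 smallest gaps were all of 12 bp or less. They were found between Satb1 and Kcnh8 (chr17:52606823-52607750, gap 3 bp), Fgd2 and Pim1 (chr17:29564542-29565778, 7 bp), Olig3 and Ifngr1 (chr10:19225008-19225510, 10 bp), Cd69 and 4922502D21Rik (chr6:129263698-129265695, 11 bp), and Tns4 and Ccr7 (chr11:98978665-98979826, 12 bp). Pim1 is a survival kinase induced by cytokines, Ifngr1 a chain of the interferon gamma receptor, Cd69 an early activation antigen and Ccr7 a homing receptor of lymph nodes. The first 3 of these Runx3 regions were H3K4me1-marked and the other two were not. In these 5 unbound regions the number of RUNX words in the whole region was 0, 1, 0, 1 and 3.

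The unbound regions were narrower than those that held Runx3. The median width was 1502 bp (interval 1481 to 1529, quartiles 1165 and 1969), compared with 1870 bp (1810 to 1931) in the Runx3-bound intergenic regions and 1432 bp (1364 to 1501) in the remote regions. A wide region has more room to share a base with a Runx3 region, so the rule and the width are not independent. Median GC content was 46.0% in the unbound, 45.9% in the bound and 45.6% in the remote regions. The median distance to any transcript start was 21508, 23552 and 29504 bp in the same order. Few lay in annotated non-coding genes: 63 (1.92%) had their centre in a lincRNA body and 46 in a processed transcript, beside 47 and 31 of the 1978 Runx3-bound regions.

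Among the 5 widest unbound regions were those between Blm and Crtc3 (chr7:87717817-87727894, 10078 bp), Glrp1 and Arl4c (chr1:90539221-90546661, 7441 bp), Rasa3 and 4932443I19Rik (chr8:13683192-13690365, 7174 bp), and Klf14 and AB041803 (chr6:31081191-31087216, 6026 bp). None of these 4 was in an annotated non-coding gene. The widest was also the one of these farthest from Runx3, at 65.5 kb, whereas the other three were 7.41 to 9.49 kb from a Runx3 centre. The 4 held 22, 13, 20 and 11 RUNX words in all, yet 0 in the central 200 bp in each. The central 200 bp of the first and second are given, without capitals since neither holds a RUNX word, as an example of wide H3K4me1 marking whose middle has no word for the factor.
Blm-Crtc3, chr7:87722756-87722955: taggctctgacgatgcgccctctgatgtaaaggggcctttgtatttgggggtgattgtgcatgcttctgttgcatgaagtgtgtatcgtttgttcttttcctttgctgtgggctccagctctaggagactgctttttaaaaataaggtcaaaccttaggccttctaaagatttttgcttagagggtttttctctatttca
Glrp1-Arl4c, chr1:90542841-90543040: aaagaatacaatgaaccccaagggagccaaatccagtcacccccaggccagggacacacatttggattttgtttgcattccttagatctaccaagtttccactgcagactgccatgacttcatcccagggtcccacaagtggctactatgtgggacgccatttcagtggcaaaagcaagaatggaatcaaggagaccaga

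The second question was whether the sequence of the unbound regions differed from that of regions with Runx3. At least 1 RUNX word was present in the central 200 bp of 1205 unbound regions (36.7%, interval 35.1 to 38.4%). The share was 37.3% over all H3K4me1 regions, 24.6% over all 200 bp tiles of the genome and 78.8% (77.9 to 79.6%) in the central 200 bp of the Runx3 regions. For the Runx3-bound intergenic regions, where the centre of the H3K4me1 region need not be the Runx3 site, it was 38.4%. The difference of the bound minus the unbound share was 1.62 percentage points (-1.07 to 4.33), and that of the remote minus the unbound share was 3.02 points (-1.74 to 7.95). Both intervals include 0. With TGTGGT alone, the form with most matches, the shares were 20.2% in the unbound, 24.2% in the bound regions, and 110 of the 440 remote regions had it. The difference of bound minus unbound was then 3.95 points (1.63 to 6.30) and of remote minus unbound 4.78 points (0.711 to 9.24), and neither interval includes 0.

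RUNX words were densest at the centre of the unbound regions. Within 250 bp of the centre there were 2.29 words per kb (counting interval 2.22 to 2.36), and 3 to 5 kb away 1.78 (1.76 to 1.80). The Runx3-bound regions had 2.63 (2.53 to 2.73) at the centre and 1.77 further out, and the remote regions 2.54 (2.33 to 2.75) and 1.76. The flanks of the 3 classes thus had like densities, and the central density was lowest in the unbound regions, with an interval that overlaps that of the remote but not that of the bound regions. For ETS words (AGGAAA or AGGAAG or CGGAAA or CGGAAG) the order was another one. The unbound regions had 4.16 (4.06 to 4.26) per kb at the centre, the bound 3.69 (3.57 to 3.81) and the remote 4.64 (4.35 to 4.92). These centres are those of the H3K4me1 regions, which in the bound class need not be the Runx3 site. The share of unbound regions with a RUNX word in the central 200 bp also varied with GC content there. It was 24.8% under 40% GC and 45.5% at 55% GC or more. Centres were not compared with flanks or genome tiles of like GC content, so the part of base composition in these contrasts was not tested.

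**Figure D2:**
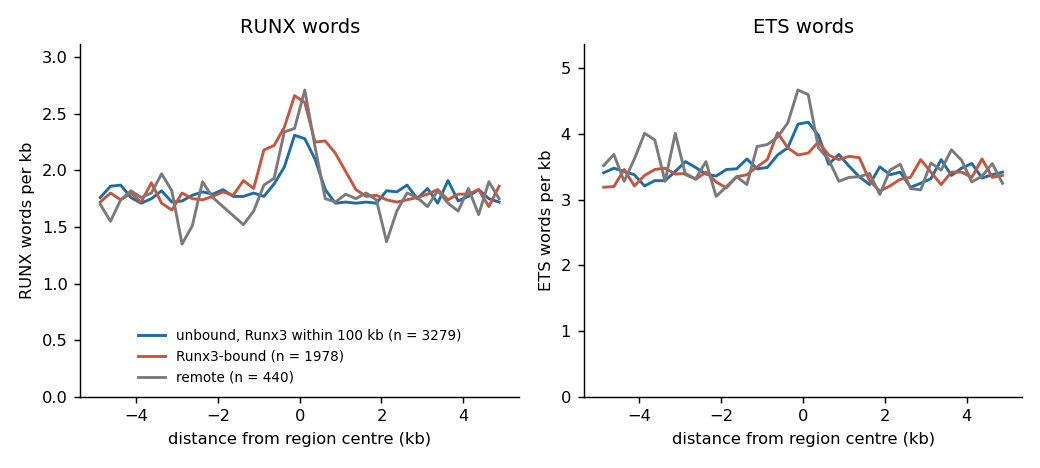
RUNX words (left) and ETS words (right) per kb in bins of 250 bp up to 5 kb on either side of the region centre, for unbound (n = 3279), Runx3-bound (n = 1978) and remote (n = 440) intergenic H3K4me1 regions. RUNX words peak at the centre in all 3 classes, and in the unbound class rise from about 1.78 per kb in the flanks to 2.29 in the middle.

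An ETS word stood in the central 200 bp of 53.6% of the unbound regions, 51.6% of all H3K4me1 regions and 41.7% of the genome tiles. It was found in 49.1% of the bound regions (bound minus unbound -4.47 points, interval -7.25 to -1.68) and in 56.1% of the remote regions. The centre of a bound H3K4me1 region need not be the Runx3 site. In the central 200 bp of the Runx3 regions themselves an ETS word was present in 66.1% (65.2 to 67.1%), above the unbound share. RUNX and ETS words were found together in the central 200 bp of 20.6% of the unbound, 20.1% of the bound and 24.5% of the remote regions. A STAT word (TTCNNNGAA), to which the factors downstream of the IL-2 receptor bind, was present in 7.90% of the unbound regions and 6.89% of all H3K4me1 regions. The genome tiles had it in 7.43%, which is inside the interval of the unbound share (7.02 to 8.87%). The remote regions had it in 12.3%, 4.37 points more than the unbound (1.46 to 7.88), and the bound regions in 6.02%, with a difference from the unbound of -1.88 points (-3.25 to -0.449). Of the Runx3 regions, 10.7% (10.1 to 11.3%) had a STAT word in their own central 200 bp, again above the unbound share. The AP-1 word TGACTCA was found in 5.98% (5.22 to 6.84%) of the unbound and 5.04% (4.74 to 5.36%) of all H3K4me1 regions. These intervals overlap, and the whole list includes the unbound regions. The word GGTGTGA of T-box factors such as Eomes was present in 3.63% of the unbound regions and 3.72% of all H3K4me1 regions. A GATA factor word (AGATAA or TGATAA) was present in 18.1 and 17.6% of these, less often than in the genome tiles (24.1%). For the factors Tcf7 and Lef1 the word was CTTTGAA or CTTTGAT, with shares of 8.94 and 8.28%. The NFAT word TGGAAA was found in 15.6 and 16.7% (genome tiles 21.3%), and an E-box (CAGCTG or CAGGTG) in 24.6 and 26.2% (genome tiles 18.1%). The GC box GGGCGG, common in promoters, was rare in both, with 2.10 and 2.70%, and more frequent in the Runx3 regions (15.4%). For these words and the AP-1 word, the intervals of the difference of the bound and of the remote regions from the unbound ones included 0. These intervals were not widened for the 10 words looked at.

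Width and base composition were considered in turn. Within 5 classes of central GC content, the RUNX share of bound minus unbound regions ranged from -2.39 to 2.76 points with every interval including 0. Within classes of width, the bound regions of 2000 to 3000 bp had the word in 44.2% and the unbound ones in 35.6%, a difference of 8.57 points (2.89 to 14.2), and in the other 4 classes the interval included 0. The lower ETS share of the bound regions had the same sign in 5 of 5 classes of GC content, and its interval lay wholly under 0 in the class under 40% GC, where it was 38.6% in the bound and 50.2% in the unbound regions. By width it was lower in 4 of 5 classes, with intervals under 0 for 1000 to 1500 bp and for 1500 to 2000 bp. The STAT difference of bound minus unbound regions had an interval under 0 in 1 of these 10 classes, that under 40% GC (6.91% against 13.0%), and it was 0.206 points at 50 to 55% GC. Over whole regions the bound had 0.383 and the unbound 0.381 STAT words per kb. The higher STAT share of the remote regions had an interval above 0 at 45 to 50% GC, at 1000 to 1500 bp and at 2000 to 3000 bp, and in none of the other 6 classes with enough remote regions to compare.

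The unbound regions closest to Runx3 had the fewest RUNX words. Of the 360 with a Runx3 centre within 2 kb, 28.6% (24.2 to 33.5%) had a RUNX word in the central 200 bp. The share was 35.5% at 2 to 5 kb and again at 5 to 10 kb, 37.9% at 10 to 20 kb, 40.1% at 20 to 50 kb and 39.0% at 50 to 100 kb. Regions over 2 kb away exceeded those within 2 kb by 9.14 points (3.96 to 13.9). The closest regions were also narrow, with a median of 1248 bp against 1445 to 1613 bp in the other distance classes. Among regions under 1000 bp, of 1000 to 1500 bp and of 1500 to 2000 bp, the difference was 11.3, 12.4 and 12.0 points, each with an interval above 0. In the 35 close regions of 2000 bp or more it was the other way round, 45.7% against 34.2% (difference -11.5, interval -28.0 to 4.10). ETS words went the same way over all widths, with 46.1% within 2 kb and 54.5% beyond (difference 8.43 points, 2.96 to 13.8). In the same width classes, from narrow to wide, the ETS difference was 3.20, 18.6, 4.21 and -7.61 points. Its interval lay above 0 only at 1000 to 1500 bp (9.95 to 26.7). The ETS share was also low at 2 to 5 kb, at 48.7%. The rule leaves out H3K4me1 regions that overlap Runx3, so closeness to Runx3 and word content may not be independent. Median GC content was 45.1% within 2 kb and 45.8 to 46.3% in the other distance classes. The contrasts by distance were not repeated within classes of GC content.

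**Figure D3:**
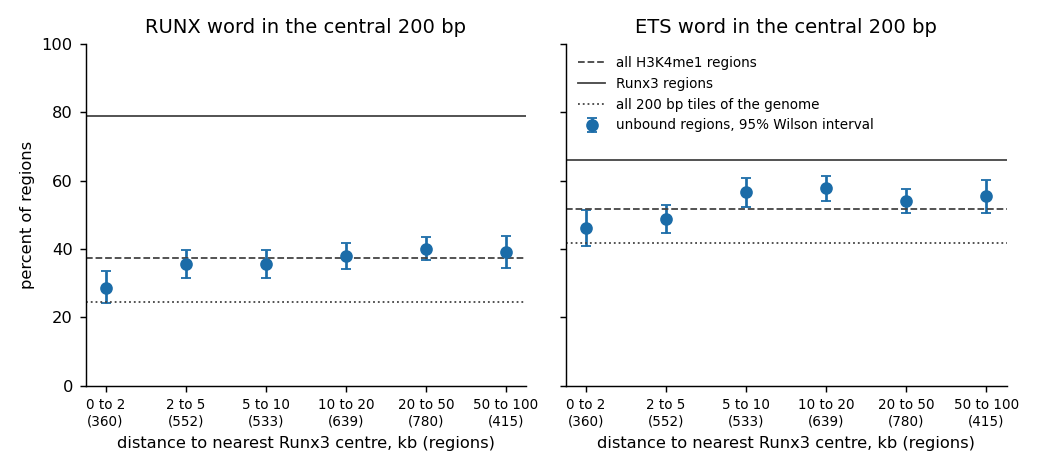
Percent of unbound regions with a RUNX word (left) or an ETS word (right) in the central 200 bp by distance to the nearest Runx3 centre, with 95% Wilson intervals and the number of regions in brackets. Lines give the share in all H3K4me1 regions (dashed), in Runx3 regions (solid) and in 200 bp tiles of the genome (dotted). The RUNX share rises from 28.6% within 2 kb to 40.1% at 20 to 50 kb and stays far under the 78.8% of the Runx3 regions.

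The third question was which genes the unbound regions lay near. They fell in 1412 intergenic intervals between protein-coding genes, of which 745 had 1 such region, 503 had 2 to 4, 130 had 5 to 9 and 34 had 10 or more. These 34 intervals contained 458 of the unbound regions (14.0%). The nearest protein-coding start was that of 1549 genes, or 6.93% of the 22350 protein-coding genes and 23.8% of the 6514 genes nearest to any H3K4me1 region, and 23 genes had 10 or more. The nearest start is a position, and was not taken as the target of a region. By chromosome, the unbound regions were 51.3 to 62.4% of the intergenic distal H3K4me1 regions on the autosomes and 9 of 19 on X.

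The 5 intervals with most unbound regions were as follows. Between Id2 and Rnf144a (chr12:25780958-26991661) there were 29, with 12 H3K4me1 regions that held Runx3 and 15 Runx3 regions in 1211 kb. Each of the 29 held at least 1 RUNX word, and their widths ran from 823 to 3681 bp with a median of 1597 bp. Between Satb1 and Kcnh8 (chr17:51972616-52865083) there were 22 in 892 kb with 5 Runx3 regions, and the median distance to Runx3 was 45 kb, against 8.36 kb in the Id2 interval. The densest of the 5 was that between Arf6 and Mettl21d (chr12:70476967-70678614), with 19 unbound regions in 202 kb, or 9.42 per 100 kb, 4 Runx3 regions and 2 bound H3K4me1 regions. Between Bcl2l11 and Gm355 (chr2:127988284-128416944) there were 18 beside 11 bound ones, and all 10 Runx3 regions there were H3K4me1-marked. Between Rap1b and Mdm1 (chr10:117282992-117578842) there were 18 beside 7 bound ones, and 5 of the 18 had a RUNX word in the central 200 bp.

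Of 154 genes with known roles in T cells, in 8 lists, 94 (61.0%, interval 53.2 to 68.4%) were nearest to at least 1 unbound region, compared with 6.93% of all protein-coding genes. Of the 139 of them that were nearest to any H3K4me1 region the share was 67.6%, compared with 23.8%. The matching share for the Runx3-bound intergenic regions was not computed, and the lists were chosen with earlier results of these data known. T cell genes had longer flanking intergenic sequence (median 88.7 kb) than all protein-coding genes (45.1 kb). Among genes with 20 to 50 kb of it, 17 of 29 listed genes (58.6%) had an unbound region and 5.18% of all genes did, and among those with 100 to 200 kb it was 21 of 28 and 12.6%. Of 14 genes of B cell and myeloid cells 1 had an unbound region, Itgam with 2, and of 15 liver, muscle and neuron genes 0 had.

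**Figure D4:**
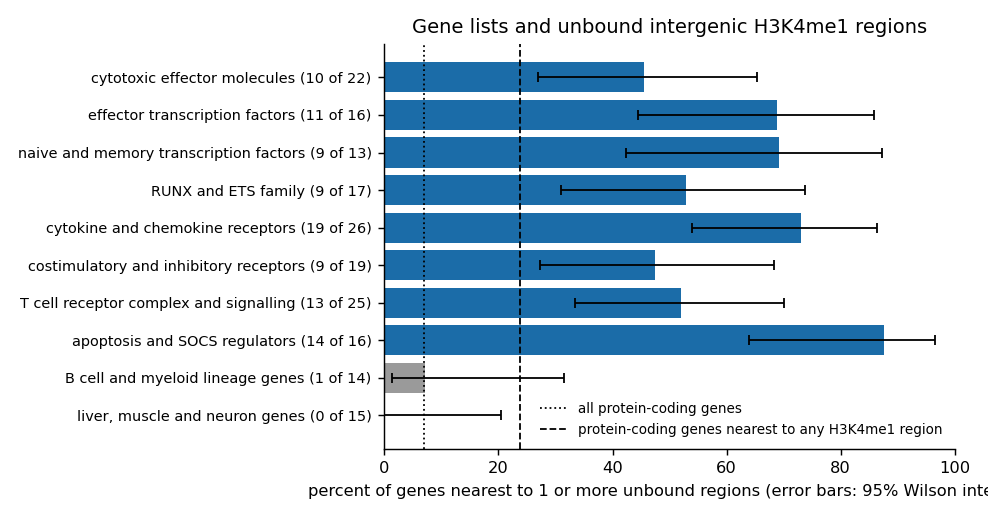
Percent of the genes of each list whose start was nearest to 1 or more unbound regions, with the counts beside each list and 95% Wilson intervals as error bars. The dotted line is the share of all protein-coding genes (6.93%) and the dashed line that of genes nearest to any H3K4me1 region (23.8%). The 8 T cell lists lie between 45.5 and 87.5%, and the lists of other lineages at 7.14 and 0%.

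Among cytotoxic effector molecules, 10 of 22 genes (45.5%) were nearest to an unbound region. Ifng, which encodes interferon gamma, had 13, and Fasl, the ligand of the death receptor Fas, had 12. Of the Ifng regions, 11 were downstream of the gene start and 2 upstream. Those downstream lay at 18.8, 26.3, 29.1, 41.2, 45.8, 54.5, 65.3, 85.6, 110, 115 and 193 kb, and those upstream at 5.03 and 36.3 kb. There were 5 Runx3 regions with Ifng as nearest start, so unbound regions outnumbered them. The unbound region 41.2 kb downstream was 577 bp wide and 1.19 kb from a Runx3 centre, while the one at 110 kb was 49.2 kb from one. The 12 Fasl regions lay 1.07 to 15.7 kb from Runx3, and 2 of them had no RUNX word. Gzmb, the protease granzyme B, had 5, all of them upstream at 9.37 to 31.3 kb and at most 4.61 kb from a Runx3 centre. Csf2 (GM-CSF) had 3, and the chemokine genes Ccl3 and Ccl5 had 2 each.

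Effector transcription factors had an unbound region in 11 of 16 cases (68.8%). Id2, an inhibitor of E-box factors needed by effector cells, had the most of any gene, 23, and each stood upstream, from 13.2 to 360 kb. Of these 23, 14 had a RUNX word in the central 200 bp. The one closest to the gene start was 81.2 kb from any Runx3 centre, and the other 22 were 1.90 to 26.4 kb from one. Myc, which drives growth and metabolism of activated cells, had 18, with 16 downstream at 107 to 900 kb. Irf4 had 8, the T-box factor gene Eomes had 7 upstream at 77.2 to 119 kb, the hypoxia factor gene Hif1a had 7 and Bhlhe40 had 6. Eomes and Hif1a differed in their distance from Runx3, with medians of 4.57 kb and 40.3 kb. Eomes had 7 Runx3-bound intergenic H3K4me1 regions as nearest and Hif1a had 1.

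Transcription factors of naive and memory cells had an unbound region in 9 of 13 cases (69.2%). Satb1, a chromatin organiser, had 20 upstream at 22.2 to 351 kb and 2 Runx3-bound intergenic regions. The 9 nearest to Satb1, from 22.2 to 74.0 kb upstream, were each 22.4 to 74.2 kb from Runx3, and the nearest Runx3 region to them stood 0.185 kb from the gene start. The 7 farthest were 0.902 to 15.2 kb from a Runx3 centre. The other four regions were 69.9 to 86.4 kb from one. Myb had 6, Bach2 and Lef1 had 5 each, and Bcl6 and Foxo1 had 4 each. None of the 6 Myb regions had a RUNX word in the central 200 bp, and 4 had one elsewhere in the region.

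**Figure D5:**
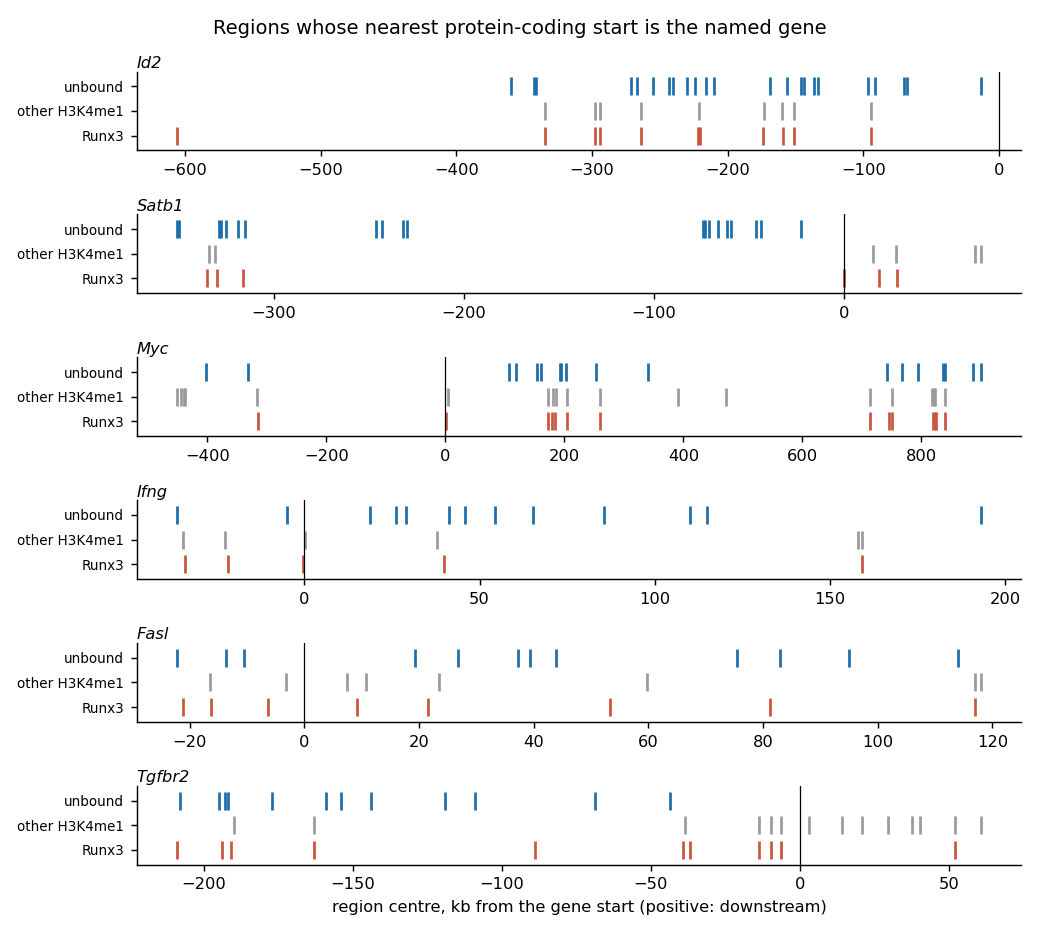
Centres of unbound regions, other H3K4me1 regions and Runx3 regions whose nearest protein-coding start is Id2, Satb1, Myc, Ifng, Fasl or Tgfbr2, in kb from the gene start, with positive values downstream. The 23 Id2 regions and the 20 Satb1 regions all lie upstream, the first set interspersed with Runx3 regions and 9 of the second in a stretch of 22.2 to 74.0 kb that has none.

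In the list of RUNX, ETS and Ikaros family genes with Gata3 and Cbfb, 9 of 17 (52.9%) had an unbound region. Ets1 had 9 at 19.7 to 444 kb, Ets2 had 6, Elk3 had 4, Runx1 had 3 and Elf4 had 1. Runx3 itself had 2, upstream of its start at 14.6 and 36.6 kb, which were 3554 and 5536 bp wide and at most 3.63 kb from a Runx3 centre. Runx3-bound intergenic regions outnumbered the unbound ones at Ets1 (10) and Runx3 (7). They were fewer at Runx1 (2), Ets2 (1), Elk3 (0) and Elf4 (0). Elk3 had 0 Runx3 regions as nearest, and its 4 unbound regions were 27.3 to 77.2 kb from one.

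Of 26 cytokine and chemokine receptor genes, 19 (73.1%) had an unbound region. Tgfbr2, the type II receptor of TGF-beta, had 12, all of them upstream at 43.6 to 208 kb, and 2 of these had no RUNX word. The next were Il6st with 9, Ifngr1 with 7, S1pr1 with 6, Cxcr4 with 4 and Ccr4 with 3. S1pr1 and Cxcr4, which guide lymphocyte traffic, had more Runx3-bound intergenic regions (8 and 7) than unbound ones. Of 19 costimulatory and inhibitory receptor genes, 9 (47.4%) had one. Icos, a costimulatory receptor of the CD28 family, had 10, each downstream of its start at 46.7 to 160 kb, whereas Ctla4 and Tigit had 5 each, Slamf6 had 4, Cd69 had 3 and Cd28 had 2.

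Of 25 genes of the T cell receptor complex and its signalling, 13 (52.0%) had an unbound region. Rasgrp1, which activates Ras below the receptor, had 7, Lat had 4, and Cd2, Cd8b1 and Fyn had 3 each. The 3 Cd8b1 regions lay 15.1 to 23.1 kb downstream of its start and 2.32 to 4.49 kb from Runx3. Each of the 4 Lat regions had a RUNX word in its central 200 bp, at 9.75 to 15.6 kb from the nearest Runx3 centre. Apoptosis and signalling inhibitor genes had the highest share, 14 of 16 (87.5%, interval 64.0 to 96.5%). Bcl2l11, which encodes the death protein Bim, and Zfp36l2, an RNA decay factor, had 9 each. Socs1, an inhibitor of cytokine signalling, and Tnfaip3, an inhibitor of NF-kB, had 8 each, Dusp6 had 7 and Dusp5 had 6. The 8 Socs1 regions lay within 32.9 kb of its start and 3.21 to 16.3 kb from Runx3.

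The regions at the limits of the rule were these. Just inside 100 kb were regions between 4933402D24Rik and Klf7 (99842 bp from the Runx3 centre) and between Scml4 and Sobp (99782 bp), and just outside were those between Postn and Fam48a (100092 bp) and between Cd44 and Pdhx (100146 bp). The regions just inside the start limit were 5008 bp (Kif3b to Asxl1) and 5021 bp (Pemt to Rai1) from a transcript start, and those just outside were 5000 bp (Nr4a2 to Gpd2) and 4994 bp (6430527G18Rik to 2310044G17Rik) from one. The intergenic regions with the least Runx3 overlap shared 4 bp (Lypd3 to Tex101) and 6 bp (Tnfrsf14 to Hes5).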

How the data were processed

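What was deposited is 1 list of called regions for Runx3 and 1 for H3K4me1, each giving mm9 positions and no score or other value. The authors aligned reads with ELAND, kept those that aligned uniquely, joined the reads of repeats and used MACS, with the NIS reads as control and the larger of each pair of read sets scaled down. The study's methods give read totals per antibody, but the lists hold no reads per region. Since repeats were joined, binding present in 1 repeat may be listed, and repeated sequence is under-represented. The labels name 1 H3K4me1 library, while their protocol speaks of 2 experiments for each antibody.

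Starts and gene bodies were from GENCODE vM1 (86803 distinct transcript starts), sequence from NCBIM37, which is mm9, on chromosomes 1 to 19 and X. Coordinates count from 1. Overlap was 1 bp or more. Distances were between centres unless given as gaps. Words were counted once per start position on either strand. Shares have 95% Wilson intervals, differences Newcombe intervals, and densities Poisson intervals. Uniqueness was the share of 32-base words found once in the genome. Functions were tested on simulated data, with 0 differences from direct counting in 7 functions. The tools were matplotlib 3.10.9, SciPy 1.17.1, numba 0.67.0, pandas 2.3.3, NumPy 2.4.6 and Python 3.11.15.

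The rule, words and gene lists were chosen with earlier results of these data known. Regions named were the 5 widest, the 5 with the smallest gap to Runx3, those at each limit of the rule and the 5 fullest intervals. Sequences shown were those of the 4 regions with most RUNX words in 200 bp and of the 2 widest, with chromosome 18 left out of that choice. Genes named were up to 6 per list with most regions, and flanking genes. The central and flanking word densities and the classes of flanking length were chosen after the values were seen. Spi1 was not found in the annotation by this symbol. Among the regions and genes these rules pick, 1 region and 2 genes are not reported here.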

Additional observations from a re-analysis of the deposited data

How the results depend on the processing

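Of 79 values computed under another setting, 66 stayed within the interval of the reported value (or, for the number of regions, within 1.5 times it) and 13 did not. The number of unbound regions ranged from 2367 to 3602. With regions closer than 1 kb merged first, the median width was 1600 bp, the median distance to Runx3 16935 bp, the share with a marked nearest Runx3 region 66.1% and the share with another unbound region within 10 kb 30.0%. Without merging, but with regions up to 1 kb from Runx3 left out, the median distance to Runx3 was 15428 bp. The share with another unbound region within 10 kb was then 47.6%. With a limit of 50 kb or of 200 kb the distance was 9828 or 14174 bp, and with 50 kb the marked share was 72.8%. Over 10 kb from starts the marked share was 73.3%. The RUNX share was 67.9% in the central 500 bp, 89.0% in the central 1000 bp and 20.2% for TGTGGT alone. The difference of bound minus unbound RUNX share ran from 0.440 points (regions within 1 kb of Runx3 left out) to 3.95 over 12 settings that share most regions. Its interval included 0 in all but those with regions merged first (3.46, interval 0.372 to 6.55) and with TGTGGT alone (3.95, 1.63 to 6.30). Counting either flanking gene, 68.2% of the T cell genes had an unbound region. No paired analysis was possible because the result comes from no test and the lists carry no values per library. For the same reason no replicate could be left out, and no stricter score could be set. The lists hold no read numbers, so regions under the calling limit of either antibody cannot be counted.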
